A study of Mus musculus with 6 samples.

Results

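Nlrp3 encodes the sensor of the NLRP3 inflammasome and Il1b encodes the precursor of interleukin-1β, the cytokine that this complex matures. The pair was chosen by gene symbol, as 2 of the 1228 genes for which FPKM values (fragments scaled to the length of the gene and the size of the library) were analysed. Both are transcripts that inflammatory cells are known to raise ahead of inflammasome assembly. Samples were Bv2 cells, an immortalised line used as a model of mouse microglia, labelled WT in genotype. The 3 control samples carry the label control, and the 3 other samples went through oxygen and glucose deprivation with reperfusion (OGD/R). Per the labels' protocols, OGD/R cells spent 30 min under nitrogen and 2 h without glucose and serum at 1% oxygen. They were then returned to complete medium for 24 h. The protocol also names an infection 72 h earlier without saying which samples it applies to, so infection and OGD/R cannot be told apart if control cells were not infected. No label says that replicates were separate cultures, so a p-value here covers only how these samples vary, which may be technical variation. Bv2 is a single cultured line, and its cells lack the surroundings of microglia in brain tissue.

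NLRP3 inflammasome activity is usually described in steps. In priming, signals from Toll-like or cytokine receptors act through NF-kB to raise the transcripts of Nlrp3 and of the interleukin-1 precursors, which are scarce in resting cells. In activation, a further signal such as potassium loss lets NLRP3 assemble with its adaptor and caspase-1, which cuts the interleukin-1β precursor and gasdermin D. RNA levels bear on the first step alone. They hold no measurement of assembly, cleavage or release.

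Nlrp3 (ENSMUSG00000032691) occupies the plus strand of chromosome 11 between 59541568 and 59566956 (GRCm38), with 4057 nt of merged exons in GENCODE M21. Il1b (ENSMUSG00000027398) occupies the minus strand of chromosome 2 between 129364570 and 129371139, with 1907 nt of merged exons. Il1a (ENSMUSG00000027399), which encodes interleukin-1α, is the next protein-coding gene on the same strand, at 129299610 to 129309972. The 250 bases before each RefSeq transcription start (GRCm38.p6) are shown because priming is described to raise transcripts and all 3 genes were higher after OGD/R. Sequence farther from the starts was not searched, and a part of these windows in the rises was not tested. They are written 5′ to 3′ on the strand of the gene, and capitals mark every match to the motifs searched. The windows are chr11:59541319-59541568 and chr11:59542436-59542685 for the upstream and the downstream start of Nlrp3, chr2:129371140-129371389 for Il1b and chr2:129309973-129310222 for Il1a.
Nlrp3, upstream start: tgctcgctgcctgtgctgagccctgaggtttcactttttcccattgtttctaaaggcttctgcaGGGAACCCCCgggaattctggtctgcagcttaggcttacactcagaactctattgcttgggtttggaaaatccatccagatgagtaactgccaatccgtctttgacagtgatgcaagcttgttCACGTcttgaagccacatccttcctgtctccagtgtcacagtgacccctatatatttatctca
Nlrp3, downstream start: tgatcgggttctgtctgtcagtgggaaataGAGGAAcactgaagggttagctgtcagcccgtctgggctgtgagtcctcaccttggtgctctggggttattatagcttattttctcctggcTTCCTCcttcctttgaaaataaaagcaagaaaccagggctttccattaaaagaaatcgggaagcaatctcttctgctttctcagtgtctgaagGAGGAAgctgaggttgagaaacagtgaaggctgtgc
Il1b: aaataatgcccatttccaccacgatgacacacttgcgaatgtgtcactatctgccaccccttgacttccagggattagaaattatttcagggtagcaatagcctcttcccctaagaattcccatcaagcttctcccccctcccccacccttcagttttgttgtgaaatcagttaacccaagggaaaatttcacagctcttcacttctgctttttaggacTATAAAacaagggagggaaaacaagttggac
Il1a: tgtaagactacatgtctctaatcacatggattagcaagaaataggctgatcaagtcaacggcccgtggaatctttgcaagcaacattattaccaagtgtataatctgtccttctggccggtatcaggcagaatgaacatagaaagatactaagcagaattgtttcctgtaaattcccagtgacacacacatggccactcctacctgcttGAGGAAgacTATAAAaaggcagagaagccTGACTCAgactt

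The motifs, searched on both strands, were the NF-kB consensus, TATAAA, the AP-1 motif TGANTCA, the PU.1 core GAGGAA, the C/EBP motif TTGCNNAA and the hypoxia response core ACGTG. The upstream Nlrp3 window held 1 place that matched the NF-kB consensus, on both strands, 186 to 177 bases before the start, and 1 hypoxia response core at 63 to 59. An NF-kB match was present in 7.25% and a hypoxia core in 16.6% of the 32851 windows of the same length. The downstream Nlrp3 window and the windows of Il1b and Il1a held no match to either. The downstream Nlrp3 window held 3 PU.1 cores, a sequence found in 23.3% of windows. TATAAA stood 31 to 26 bases before the Il1b start and 32 to 27 before the Il1a start, and was present in 12.4% of windows. Il1a further held 1 PU.1 core and 1 AP-1 motif, the latter present in 6.75% of windows. The C/EBP motif, present in 9.56% of windows, was in none of the 4. No match overlapped a match to another motif. A match describes letters only, and binding was not measured.

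The deposited table is a selection. No gene lay near equality: the 605 higher genes started at a log2 ratio of means of 1.03 and the 623 lower ones at -0.97. How the genes were picked is not stated. Of the 852 genes with a mean of at least 1 FPKM, 97.3% passed an adjusted p of 0.05 in limma, 46.6% as higher and 50.7% as lower, and in 94.9% of all 1228 genes the groups did not overlap. A call or a gap between groups in this table is therefore what nearly every gene shows, and the sizes and levels carry the description. Steps between low FPKM values gave library sizes of 7630000 to 8244000 counted units in control and 8032000 to 8668000 in OGD/R; what 1 unit stands for, a read or a pair, is unknown. Of 22 listed microglia and macrophage markers 3 could be read, and defining ones such as Aif1, Itgam and Csf1r are not analysed here, so the labelled cell type could be checked only in part. Cx3cr1 was at 0.22 to 0.52 FPKM in control and 1.55 to 1.99 in OGD/R, P2ry12 at 0.41 to 0.62 and 1.04 to 1.62, and P2ry13 at 1.24 to 1.75 and 0.46 to 0.84. None of the 25 listed markers of neutrophils, lymphocytes and astrocytes could be read. Of 24 neuronal, oligodendrocyte, endothelial and fibroblast markers, 3 could: Tubb3 was at 0.56 to 1.17 and 0 to 0.37 FPKM, Cspg4 at 0.08 to 0.09 and 0 to 0.03, and Vwf at 3.22 to 4.40 and 1.10 to 1.74. Their part in the results was not tested. In bulk RNA, more cells carrying a transcript and more of it per cell cannot be told apart.

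Nlrp3 was higher after OGD/R in 3 of 3 libraries, by 2.11-fold in the means. It measured 7.81, 8.73 and 7.21 FPKM in control replicates 1, 2 and 3 and 16.73, 16.36 and 17.04 FPKM in the OGD/R replicates. The lowest OGD/R library stood far above the highest control library, and the OGD/R libraries differed little among themselves. The means were 7.92 ± 0.766 and 16.7 ± 0.340 FPKM (SD, n = 3). In limma the log2 fold change on the log2(FPKM + 1) scale was 0.99 ± 0.10 SE (95% interval 0.75 to 1.24, adjusted p = 0.00019). The exact permutation test of the 6 values gave p = 0.1, the smallest that 3 against 3 allows (two-sided). The coefficient of variation of Nlrp3 was 9.67% in control and 2.04% in OGD/R, against medians of 17.1% and 15.5% over the 852 tested genes. Many of these genes were lower than Nlrp3, since 423 passed a minimum of 5 FPKM. Counted units of Nlrp3 ranged from 223 to 292 in control and 545 to 599 in OGD/R libraries. The exact 95% Poisson interval of OGD/R replicate 1 alone, 15.35 to 18.19 FPKM, held all 3 OGD/R values. Their closeness is thus within counting error, and nothing is read from it.

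Within the table this was one of the smaller rises but one of the better expressed genes. By ratio of means Nlrp3 ranked 556 of 605 higher genes, so 49 had a smaller rise and Nlrp3 stood close to the edge of the selection at 1.03 (log2 ratio of means 1.08). By mean FPKM it ranked 305 of 1228 in control and 152 in OGD/R.

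Il1b was at or near the floor in every library. It was listed at 0, 0 and 0.28 FPKM in control replicates 1, 2 and 3 and at 0.39, 0.93 and 0.67 FPKM in the OGD/R replicates. As in 48.4% of the table's genes, the OGD/R values were all above the control values, but the highest control and the lowest OGD/R library were close. On the recovered scale these levels were 0, 0 and 4 counted units in control and 6, 15 and 11 in OGD/R. The exact 95% Poisson intervals of the 4 units in control replicate 3 (1.09 to 10.2) and of the 6 units in OGD/R replicate 1 (2.20 to 13.1) overlapped. For a count of 0, a limit of 3 units (one-sided) is 0.205 and 0.191 FPKM in control replicates 1 and 2, and the upper end of the exact two-sided 95% interval, 3.69 units, is 0.252 and 0.235 FPKM. These intervals and limits cover counting error only.

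Summed over libraries, Il1b had 4 units in control and 32 in OGD/R, a ratio per library size of 7.48 with a 95% counting interval of 2.65 to 29.1. The ratio of the FPKM means was 7.11, which ranked 80 of 605 higher genes. The ratio of counted units moved with the library left out, within its counting interval. It was 4.86 without control replicate 2 and 8.93 without OGD/R replicate 1, the lowest and the highest apart from control replicate 3. Control replicate 3 was the single control library with any Il1b unit. Without it, the 32 OGD/R units stood 6.74-fold above a limit of 3 units over the remaining control libraries, per library size. This figure leaves out the counting error of the 32 units (95% interval 21.9 to 45.2). The mean of Il1b was below the 1 FPKM needed for the limma fit, so its test was the exact permutation of log2(FPKM + 1), with a difference of 0.60 and p = 0.1, the smallest possible for 3 against 3 (two-sided). Limma without the minimum called Il1b (log2 fold change 0.60 ± 0.15 SE, adjusted p = 0.0078; 0.0052 to 0.013 over its other settings), as it did 96.0% of all genes. Il1bos, an antisense gene on the opposite strand, overlaps Il1b and is not analysed here. Nothing states whether reads were counted by strand, so units of Il1b may include antisense RNA.

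**Figure D1:**
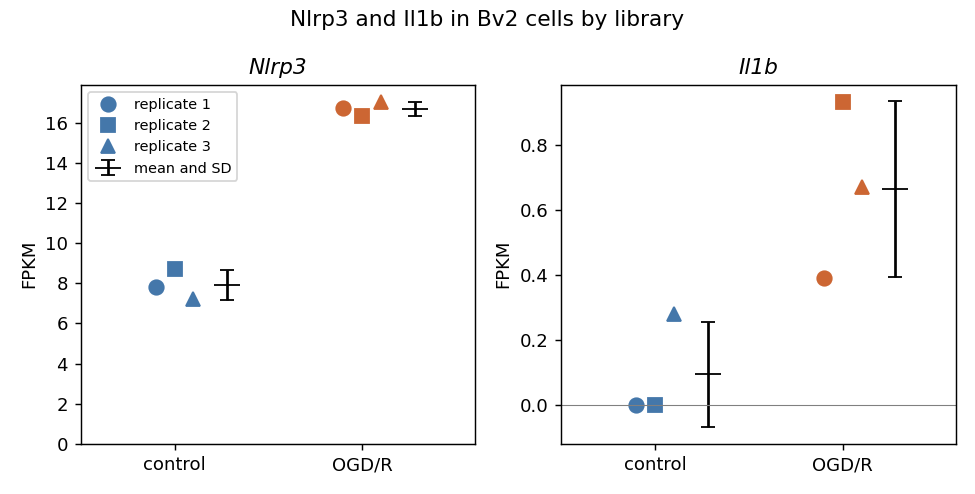
FPKM of Nlrp3 (left) and Il1b (right) in each of the 6 libraries, with control in blue, OGD/R in orange, one symbol per replicate number, and group mean with SD (n = 3) in black. Nlrp3 lies at 7.21 to 8.73 in control and 16.36 to 17.04 in OGD/R, while Il1b lies at 0 to 0.28 and 0.39 to 0.93 on a scale far lower.

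Both members were higher in OGD/R, at far different levels. Where Il1b was detected, the FPKM of Nlrp3 was 25.8 times that of Il1b in control replicate 3 and 42.9, 17.6 and 25.4 times in OGD/R replicates 1, 2 and 3. Over the 6 libraries the Pearson correlation of their log2(FPKM + 1) values was 0.80, a description in which the group difference that put both genes into the table takes part.

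Among the ligands, Il1a followed the direction of its neighbour at a higher level. Il1a measured 0.79, 1.04 and 0.80 FPKM in control and 2.78, 2.99 and 1.87 in OGD/R, or 12, 17 and 12 counted units against 44, 50 and 32. The groups did not overlap, as in 94.9% of the table's genes, and OGD/R replicate 3 was the lowest of its group. The means were 0.877 ± 0.142 and 2.55 ± 0.595 FPKM (SD, n = 3). Limma gave a log2 fold change of 0.91 ± 0.16 SE with an adjusted p of 0.0015. The FPKM of Il1a was 2.86 times that of Il1b in control replicate 3 and 7.13, 3.22 and 2.79 times in the OGD/R libraries, so interleukin-1α transcripts exceeded those of interleukin-1β in each library. Gm14023, which overlaps Il1a on the opposite strand, was at 0.81, 0.54 and 0.29 FPKM in control and 0.98, 1.26 and 1.68 in OGD/R; its part in the Il1a values was not tested.

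The receptors of the family did not move as 1 group. Il1r1, the receptor through which both ligands signal, was at 0.98, 0.97 and 1.32 FPKM in control and lower, at 0.51, 0.43 and 0.63, in OGD/R. Il1r2, a decoy receptor that binds interleukin-1 without signalling, was at 0.21, 0 and 0.14 FPKM in control and higher, at 1.11, 0.37 and 0.67, in OGD/R. Neither reached the mean of 1 FPKM needed for the fit, and Il1r2 rested on 3, 0 and 2 counted units against 17, 6 and 11. In both genes the groups did not overlap, as in 94.9% of the table's genes. Il18rap, the accessory chain of the interleukin-18 receptor, measured 2.20, 1.74 and 1.71 FPKM in control and 5.11, 4.43 and 4.22 in OGD/R, and rose (limma log2 fold change 0.96, adjusted p = 0.00041). These 3 receptor genes lie in a single cluster on chromosome 1, on the plus strand, from 40074079 (Il1r2) to 40551705 (Il18rap), with Il1r1 at 40225080 to 40317257. Other receptor genes of that cluster, and Il18, Il33 and Il1rn, are not analysed here. Of 19 listed IL-1 family genes 5 were in the table, and 2 of the 2 tested rose, beside 46.6% of all tested genes. Nothing is read from this count, because the minimum shaped it. Il1a, with a mean of 0.877 FPKM in control, passed through its OGD/R values. Il1r1, with a mean of 1.09 FPKM in control, was left out because it was at 0.523 in OGD/R.

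**Figure D2:**
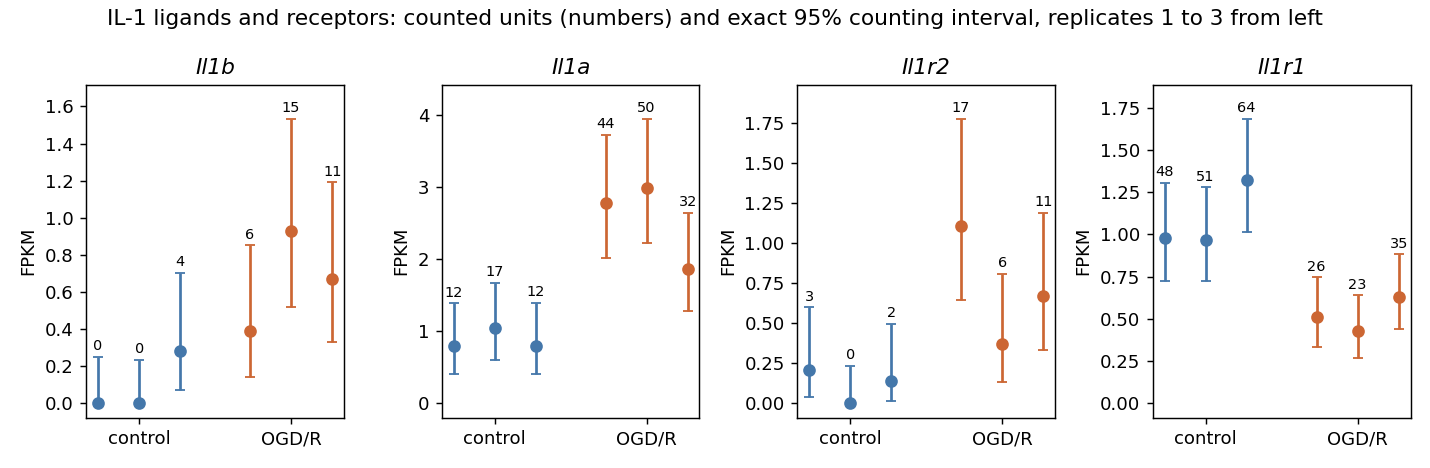
FPKM of Il1b, Il1a, Il1r2 and Il1r1 in each library (control blue, OGD/R orange, replicates 1 to 3 from left), with bars for the exact 95% Poisson counting interval and the counted units printed above. Il1b rests on 0 to 4 units in control and 6 to 15 in OGD/R, and Il1r1 is the 1 gene of the 4 that is lower in OGD/R.

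Among the sensors, Nlrp3 moved with the NAIP and NLRC4 genes and opposite to Nlrc3. Nlrc4, the core of another inflammasome, measured 1.39, 1.20 and 1.26 FPKM in control and 4.22, 3.69 and 3.70 in OGD/R (1.09 ± 0.10 SE in log2 fold change, limma adjusted p = 0.00016). Naip1, a cytosolic receptor that recruits NLRC4, measured 1.08, 0.90 and 0.66 FPKM in control and 3.96, 4.01 and 3.09 in OGD/R (log2 fold change 1.32 ± 0.14 SE, adjusted p = 0.00022 in limma). Naip1 has close paralogs in the same cluster, so its values are uncertain where reads match several of them. Nod1, a sensor of bacterial peptidoglycan that works outside inflammasomes, was at 0.36, 0.38 and 0.39 FPKM in control and 1.74, 1.02 and 1.43 in OGD/R, and was below the minimum of the fit.

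Nlrc3, which is known to restrain innate signalling, measured 22.22, 23.59 and 23.22 FPKM in control and 9.90, 10.61 and 10.29 in OGD/R, and fell (log2 fold change -1.09 ± 0.09 SE, adjusted p = 0.00011 in limma). The order of Nlrp3 and Nlrc3 changed with the group. The FPKM of Nlrp3 was 0.351, 0.370 and 0.311 of that of Nlrc3 in control replicates 1, 2 and 3 and 1.69, 1.54 and 1.66 times it in OGD/R. In contrast Nlrp3 stayed above Nlrc4 in each library, by 5.62 to 7.28 times in control and 3.96 to 4.61 times in OGD/R. Of 20 listed NOD-like receptors and other sensors 5 were in the table. Of the 4 tested, 3 rose and 1 fell, beside 46.6% and 50.7% of all tested genes. Naip1, with a mean of 0.88 FPKM in control, passed the minimum only through its OGD/R values. The list's median log2 fold change was 1.04, against -0.68 over all 852 genes. The median over all genes falls in the gap that the selection left around equality and ranged from -0.99 to -0.12 over the settings tried, so nothing is read from this contrast.

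**Figure D3:**
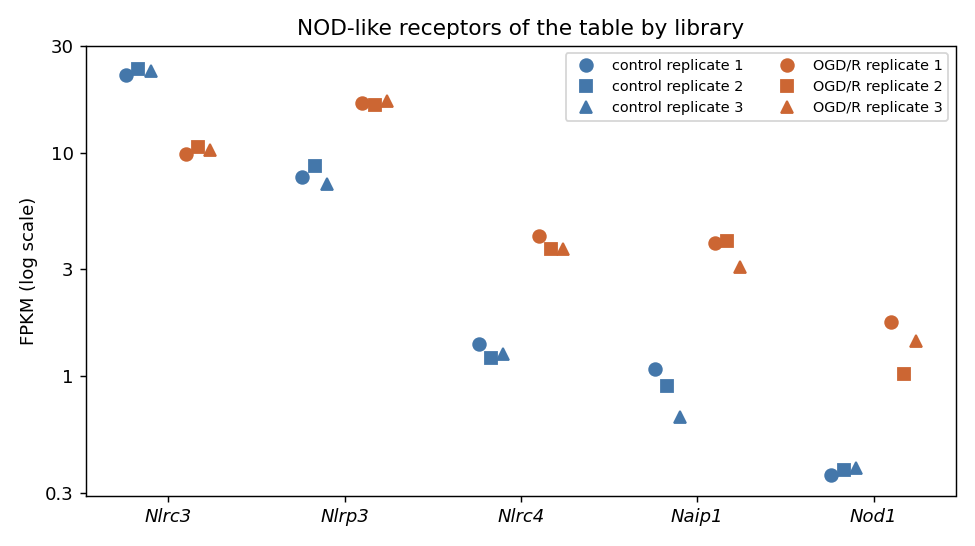
FPKM on a log axis for the 5 listed NOD-like receptor genes of the table in each of the 3 control (blue) and 3 OGD/R (orange) libraries, one symbol per replicate number. Nlrc3 lies above Nlrp3 in control (22.22 to 23.59 against 7.21 to 8.73) and below it in OGD/R (9.90 to 10.61 against 16.36 to 17.04).

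Downstream of the sensors a single gene of 13 on the list of adaptor, caspases, gasdermins and other effectors was in the table. Casp4, encoding caspase-11 of the mouse, which senses lipopolysaccharide and opens the noncanonical route to NLRP3, measured 5.98, 8.66 and 7.42 FPKM in control and 3.16, 2.42 and 3.36 in OGD/R. It fell, opposite to Nlrp3 (-1.06 ± 0.16 SE in log2 fold change, limma adjusted p = 0.00082). Casp1, Pycard, Gsdmd and Nek7 are not analysed here.

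Of 42 listed partners and regulators of NLRP3 6 were in the table and tested. Of these 4 rose and 2 fell, beside 46.6% and 50.7% of all tested genes. The list was drawn up with earlier results of these data known, so these counts only describe it. Whether Cytip and Itgb2, both on the list, act on NLRP3 was not tested. Txnip, whose product is described as a binding partner of NLRP3 under oxidative stress, measured 21.60, 33.63 and 29.89 FPKM in control and 173.81, 179.48 and 223.57 in OGD/R. Cytip, a cytohesin-binding adaptor named in the title of the series, Itgb2, the β2 integrin chain, and Nr4a1, a nuclear receptor that restrains inflammatory genes, rose too (2.10, 1.24 and 2.16 in log2 fold change; Txnip 2.73). The log2 fold changes are on the log2(FPKM + 1) scale, which shrinks changes of low genes. As log2 ratios of means, Nr4a1 (3.24) and Cytip (2.86) stood above Txnip (2.76), and Itgb2 (1.27) below it. Sqstm1, the autophagy receptor p62, measured 270.00, 288.85 and 275.97 FPKM in control and 78.74, 84.81 and 83.29 in OGD/R. It fell (-1.75 ± 0.09 SE in log2 fold change, limma adjusted p = 4.4e-05), as did the phosphatase gene Ptpn22, with -0.90. The median over this list was 1.67. With no gene near equality, a median of few genes mostly shows which direction held more of them. Nothing is read from it or from the list medians below.

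Tested genes upstream of NF-kB went both ways, while 2 of 2 tested NF-kB genes and 7 of 9 tested targets fell, in a table where 50.7% of tested genes fell; no test sets these counts against that share. Of 33 listed priming receptors and adaptors 5 were tested: the receptors Tlr8 and Tlr13 and the inhibitory kinase homologue Irak3 rose (1.22, 1.01 and 1.00 in log2 fold change), while the genes for TRIF (Ticam1, -1.10) and its bridging adaptor (Ticam2, -1.25) fell. Tlr8 was low, at 0.04 to 0.27 FPKM in control and 1.00 to 2.34 in OGD/R, and passed the minimum only through its OGD/R values. Its call is thus not on a par with that of Tlr13, at 31.31 to 38.19 and 60.01 to 74.94 FPKM. The list's median was 1.00. Of 28 listed NF-kB genes 2 were tested and both fell, with a median of -0.83. Relb, a subunit of the noncanonical pathway, measured 4.30, 4.40 and 3.61 FPKM in control and 1.73, 2.31 and 2.11 in OGD/R, and Nfkbiz, a nuclear cofactor that is itself induced by interleukin-1, measured 5.25, 7.64 and 7.84 against 2.80, 2.73 and 3.98. Both had groups that did not overlap, as in 94.9% of the table's genes (limma log2 fold changes -0.74 and -0.92, adjusted p = 0.0013 and 0.0031).

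Of 31 listed cytokines, chemokines and enzymes that NF-kB induces, 9 were tested. Of these 2 rose and 7 fell, beside 46.6% and 50.7% of all tested genes. The list's median log2 fold change was -1.02. On the log2(FPKM + 1) scale, which shrinks changes of low genes, Cd83 and Cxcl10 rose with 2.28 and 0.62. Ptgs2, which encodes cyclooxygenase-2 and is a classical priming transcript, fell with -1.55. Ccl7, Lcn2, Tnfsf9, Csf1, Nos2 and Cd40 fell with -2.21, -2.34, -1.39, -1.02, -0.95 and -0.87. As log2 ratios of means, Lcn2 (means 5.28 and 0.163 FPKM) was at -5.02, Ccl7 at -2.35, Nos2 at -1.85 and Cxcl10 at 1.04. Il6 was at 0.97, 1.45 and 1.57 FPKM in control and 0.10, 0.34 and 0.10 in OGD/R, in the direction opposite to Il1b and also low, below the minimum of the fit. Il23a, at 0.88 to 1.19 and 0.17 to 0.36 FPKM, and Saa3, at 0.80 to 1.68 and 0.23 to 1.06 with overlapping groups, were below it too. Tnf is not analysed here.

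Of 24 listed genes for the transcription and mRNA decay of Il1b 3 were in the table. Atf3, a stress-induced repressor of inflammatory genes, measured 62.99, 84.91 and 84.30 FPKM in control and 18.90, 19.24 and 25.56 in OGD/R, and the AP-1 subunit gene Jund 127.01, 110.95 and 102.81 against 50.54, 51.62 and 45.94. Both fell (limma log2 fold changes -1.82 and -1.18, adjusted p = 0.00016 and 0.00017), beside 50.7% of all tested genes. Their median was -1.50. Maf went the other way, at 0.27 to 0.49 FPKM in control and 0.90 to 1.09 in OGD/R, but was below the minimum of the fit. Over the 8 lists 39 of 210 genes were in the table and 31 were tested, of which 14 rose and 17 fell, or every tested gene, beside 97.3% of the table. Limma without the minimum called the 8 listed genes below it as well, Il1b, Il1r2, Nod1 and Maf as higher and Il1r1, Il6, Il23a and Saa3 as lower (adjusted p = 0.00073 to 0.039), beside 96.0% of all genes. Of the 39, Saa3 was the 1 gene whose groups overlapped, in a table where 94.9% of genes had groups that did not.

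**Figure D4:**
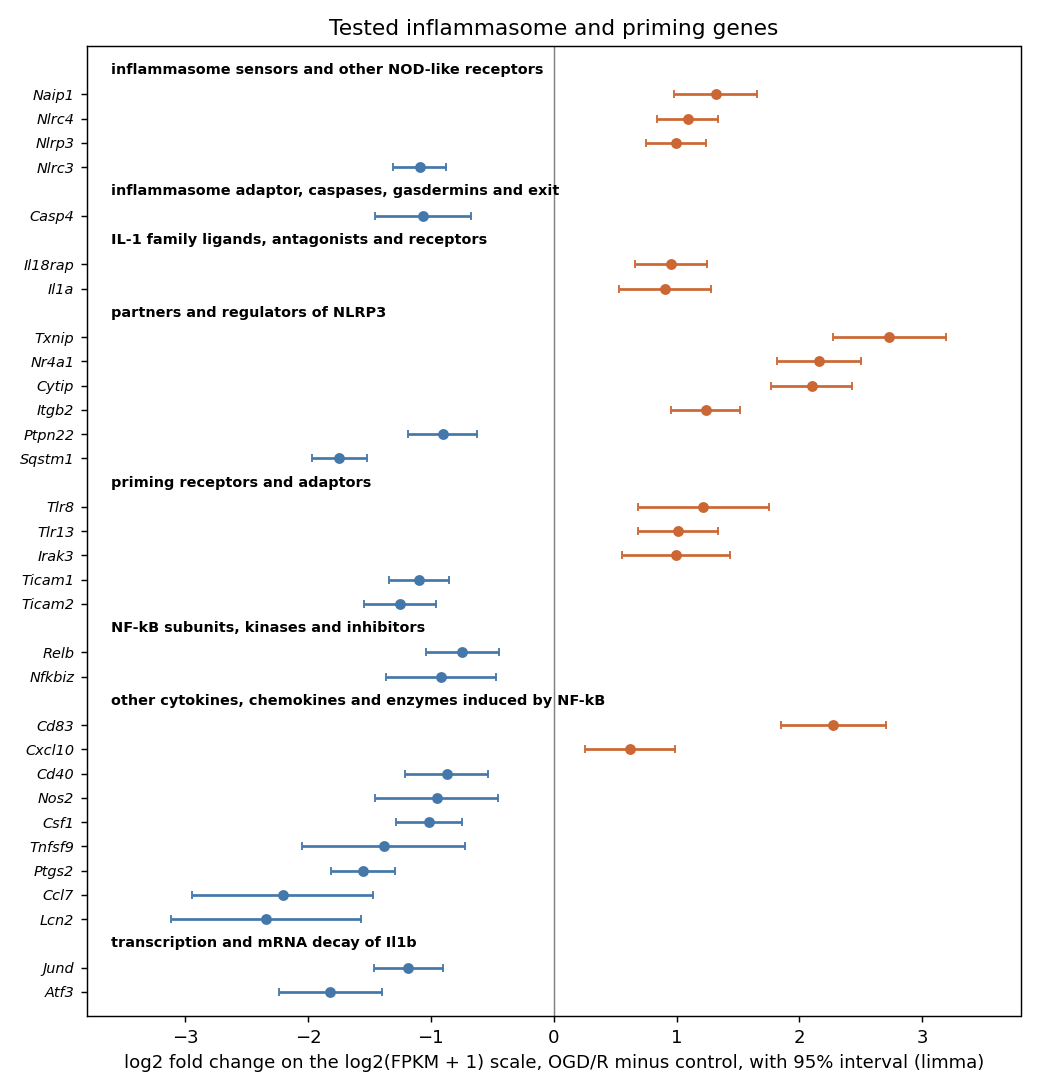
Log2 fold change of OGD/R minus control on the log2(FPKM + 1) scale (horizontal axis) for the 31 tested genes of the 8 lists, grouped by list, with the 95% interval from limma; orange is higher and blue lower in OGD/R. Nlrp3, at 0.99, stands beside Nlrc4 and Naip1 on the right, while Nlrc3, Casp4, Relb and Nfkbiz stand on the left. Among priming genes Tlr8, Tlr13 and Irak3 stand on the right and Ticam1 and Ticam2 on the left. Of 9 NF-kB targets 7 stand on the left and 2, Cd83 and Cxcl10, on the right. Over all tested genes 50.7% fell and 46.6% rose.

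The genes whose profile over the 6 libraries was most like that of Nlrp3 by Pearson correlation of log2(FPKM + 1), among 633 genes, were Thbd (0.998), Depdc1b (0.997), Ocstamp (0.997), E2f8 (0.997) and Chst10 (0.997). Such values were common, since 262 of these genes exceeded 0.9, and the libraries share the group difference for which the table's genes stand out. For Il1b the most alike were Nr4a2 (0.957), Irak3 (0.952), Riiad1 (0.950), Ccdc152 (0.930) and Fbxo5 (0.922), and 14 of 634 genes exceeded 0.9. Irak3, from the priming list, shared with Il1b that control replicate 3 was the highest control library and OGD/R replicate 2 the highest of all, at 1.57 and 3.73 FPKM. Il1b rests on 0 to 15 units a library, so its likeness to any gene is loosely fixed. For both members the 5 genes changed with both other pseudocounts tried and with each library left out.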

How the data were processed

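Values were FPKM for 1228 genes in 6 libraries, as deposited by the authors, per the file headers. GRCm38 is the build named, per the submitters' processing notes; for the aligner, counter and annotation nothing is given in the sources used here. Per the labels' protocols, 1 ug of RNA was used and paired reads were 150 nt. Gene IDs were matched to GENCODE M21 (1227 of 1228). Library sizes were taken where values under 15 units became whole multiples (within rounding plus 0.03 units) given exon lengths. There 96.8% to 99.6% were whole, against at most 54.1% at other sizes searched that were over 3% away. Whole multiples of the sizes found, which could also give whole values, lay outside the range searched. Recovered units of Nlrp3 lay up to 0.23 from a whole number. Sizes were fitted on values under 15 units, so these larger counts are approximate.

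Genes with a mean of at least 1 FPKM were fitted in R 4.3.3 by limma 3.58.1 on log2(FPKM + 1) (group only, eBayes with a trend, two-sided, Benjamini-Hochberg over 852 genes, threshold 0.05). Il1b, below that minimum, had an exact permutation test. A gene low in 1 group could pass the minimum through the other group alone. The limma script was tested on simulated data in which most genes did not change. The deposited table has no gene near equality, so that check does not cover error rates in it. Intervals are exact Poisson or, for ratios, exact binomial. Members and the 8 lists were chosen with earlier results of these data known. Named genes are the members, listed genes in the table and the 5 most correlated with each member, without predicted genes (Gm, Rik, -ps) or unnamed IDs; Gm14023, Il1bos and marker genes are named beside them. Alternatives covered pseudocount, filter, scaling, eBayes, a replicate block, voom on recovered units and each library left out. Other steps used Python 3.11.15, pandas 2.3.3, numpy 2.4.6, scipy 1.17.1 and matplotlib 3.10.9.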

Additional observations from a re-analysis of the deposited data

How the results depend on the processing

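Nlrp3 kept its direction and its call in all 16 alternatives, with log2 fold changes of 0.94 to 1.06 without any 1 library and 0.99 to 1.08 in the others (limma adjusted p at most 0.0017). For Il1b the exact permutation gave differences of 0.49 to 0.73 without any 1 library, and 2.23 and 4.37 with pseudocounts of 0.1 and 0.01, with p = 0.1 to 0.2. Limma on all genes called it, at 0.60 with a trend, without a trend, with robust estimation and with the replicate block (adjusted p = 0.0078, 0.013, 0.0082 and 0.0081), and at 3.25 with voom (0.0052), a size that depends on the prior count. The 829 calls in the table were 409 with a minimum of 5 FPKM, since 423 genes were then tested, 1179 with no minimum, since 1228 were, and 786 to 831 without any 1 library. In the lists the 14 rises and 17 falls were 5 and 11 with the minimum of 5 FPKM, 18 and 21 with none, and 13 to 14 and 17 to 17 without any 1 library. The 31 tested genes of the lists kept direction and call in all 479 fits in which they passed the minimum. In a table with no gene near equality and 97.3% of tested genes called, this does not set them, Nlrp3 included, apart. Among 7 genes below the minimum, 14 of 56 alternatives moved the difference beyond the replicate spread, all with smaller pseudocounts, and none reversed it. In 16 of 16 combinations of member and setting at least 1 of the 5 most alike genes was replaced (38 of 80 single values). The replicate block gave 0.99 for Nlrp3 (limma adjusted p = 0.0012), 835 calls in the table, and 14 rises and 17 falls. Libraries with the same number had deviations from their group means that correlated at 0.428, -0.349 and 0.375, so the numbers showed no steady pairing; the block changed no call among the listed genes, and limma called Il1b with and without it. Depth limits Il1b and Il1r2, with at most 17 units in a library.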
